A study of Sus scrofa with 35 samples.

Results

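The cathepsin genes CTSA, CTSB, CTSC, CTSD, CTSF, CTSH, CTSK, CTSL1, CTSS and CTSZ were followed in whole blood of pigs kept at a thermoneutral temperature or exposed to heat. They were chosen by name, as every non-control probe whose gene name on the array equalled one of these symbols. All 10 genes were represented, by 40 of the 60305 non-control probes on the array, and 33 of the 40 lay among the 39072 probes for which the authors deposited log2 values. The 35 pigs were castrated males of the Creole breed (CR), the Large White breed (LW) and their cross (F1), with 5 CR pigs and 6 pigs of each other breed in thermoneutral conditions (TN), and 6 pigs of each breed after heat stress (HS). The TN groups carry a label of 24 °C. The HS groups carry a label of 30 °C, while the protocol gives 32 °C for 5 days. By the paper's account some HS pigs were slaughtered a day before that, and the labels do not separate them. TN pigs were slaughtered before the temperature was raised and HS pigs afterwards, so that slaughter date and temperature cannot be told apart. Blood was drawn into tubes that fix RNA at once, and each sample, from 1 pig, was hybridised to 1 array in a single colour. The labels give no genotype beyond the breed and no treatment other than the heat.

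Cathepsins are the main proteases of the lysosome, the compartment in which cells break down proteins taken up from outside or delivered from within. Most are cysteine proteases (CTSB, CTSC, CTSF, CTSH, CTSK, CTSL1, CTSS, CTSZ), CTSD is an aspartic protease and CTSA is a serine carboxypeptidase that also protects other lysosomal enzymes. The cysteine proteases are held in check by cystatins. All cathepsins are made as inactive precursors, carried to the lysosome largely by mannose 6-phosphate receptors and matured at acid pH. In blood they are best known from monocytes, neutrophils and antigen-presenting cells, where they degrade ingested material, activate granule proteases and prepare antigens for display.

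The probes are 60 bases long, and several of a gene overlap, so they are not independent readings of it. The pair of CTSZ probes is shown because it reads the same stretch in opposite orientations, the capitals marking 39 bases that are each other's reverse complement.
CTSZ A_72_P157891: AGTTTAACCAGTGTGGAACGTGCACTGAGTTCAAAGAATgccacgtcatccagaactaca
CTSZ O11960: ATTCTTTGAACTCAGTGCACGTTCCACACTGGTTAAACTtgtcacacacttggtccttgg

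A_72_P157891 was well above background, by the scanner software's call, on 35 of 35 arrays and O11960 on 4, and the latter is outside the table of log2 values. The CTSH probes are shown because all 3 moved with heat. The first pair shares the 31 bases in capitals, while the third, A_72_P609994, had no run of 16 or more bases in common with them.
CTSH A_72_P125121: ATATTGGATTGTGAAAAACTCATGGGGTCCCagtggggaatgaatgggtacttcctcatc
CTSH A_72_P035971: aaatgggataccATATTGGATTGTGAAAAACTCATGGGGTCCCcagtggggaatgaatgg
CTSH A_72_P609994: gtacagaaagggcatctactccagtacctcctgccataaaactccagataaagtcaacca

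The CTSD probe below was the only one of its gene past the threshold for heat, and the CTSS probe stands for a gene that was not called.
CTSD A_72_P772656: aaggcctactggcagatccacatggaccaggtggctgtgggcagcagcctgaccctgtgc
CTSS A_72_P150601: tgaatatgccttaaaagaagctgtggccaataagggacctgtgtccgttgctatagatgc

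Among the other probes, A_72_P562909 and A_72_P095036 of CTSB are one 60-base sequence placed in separate spots. A_72_P077676 and A_72_P621418 of CTSB share 40 bases and the CTSF pair shares 54. O11991 of CTSD is the reverse complement of the gene's leading probe over 58 bases. For CTSS, both probes share long runs (57 and 36 bases) with probes that the array names LOC100153090, a gene ID that the RefSeq table for Sscrofa11.1 names CTSS. The array thus holds 10 further probes of CTSS under that name, which the choice by symbol left out. The record behind the CTSL1 probes carries the name CTSV in the same table, with CTSL1 and CTSL2 among its synonyms, and the array's symbol is kept here. For 7 cathepsin probes whose names begin with O, the array gives a human record, and none of these records is in the porcine RefSeq table. They include the leading probes of CTSC (O5247), CTSF (O8149) and CTSS (O9267), the probes O1726 of CTSA, O12329 of CTSB and O11991 of CTSD, and O11954 of CTSK, which is outside the table of log2 values. O5247, O8149, O9267 and O11991 each share a run of over 30 bases with another probe on the array, and O1726, O12329 and O11954 do not. The array file gives no genome position for these probes, and none is given here.

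The 35 arrays lay on 5 slides, with 4 to 8 arrays per slide, and between 55.2% and 68.0% of non-control probes were well above background on each. No cathepsin spot was saturated. F1 pigs in TN gave the dimmest arrays, with a 75th percentile of processed intensity of 149.9 ± 28.3 (SD, n = 6) against 237.9 ± 35.6 (n = 6) for F1 pigs in HS. In all other groups the mean lay between 202.1 and 227.8. The labelled tissue, whole blood, was checked by the markers HBB (red cells), CD14 (monocytes), S100A8 (neutrophils), CD3E (T cells) and CD79A (B cells), which were well above background on all 35 arrays. In whole blood, fewer cells of a type and less RNA per cell cannot be told apart.

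The first comparison asked which cathepsin genes differed between HS and TN over the 3 breeds. CTSZ, CTSH, CTSA and CTSB were higher in HS, by 1.17 to 1.51-fold on the probe with the highest mean signal of each gene (its leading probe). CTSC, CTSD, CTSF, CTSK, CTSL1 and CTSS were not detected as differentially expressed on theirs. In limma's test with breed and climate as terms, and with Benjamini-Hochberg adjustment over all probes at a threshold of 0.05, the calls covered 4 of 10 leading probes, all higher. That is 40% against 39.7% of the leading probes of all 8688 named genes, so the number of genes called was that of the array as a whole. Over all 33 cathepsin probes, 14 were called (42.4%, against 34.8% of all probes), 13 of them higher, where 20.1% of all probes were higher, and 1 lower, where 14.7% of all probes were. CTSB alone supplied 6 of the 13 higher probes. The median change of the cathepsin probes was 0.16 on the log2 scale, against 0.06 for all probes.

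CTSZ, a carboxypeptidase that removes single residues from the end of proteins, had the largest change. In CR pigs in TN the log2 values of A_72_P157891 were 8.80, 9.13, 9.18, 9.27 and 9.32, and in CR pigs in HS they ran from 9.55 through a median of 9.88 to 10.64. Every CR pig in HS lay above every CR pig in TN. In F1 pigs the lowest, median and highest values were 8.45, 9.0 and 9.68 in TN and 9.29, 9.69 and 10.27 in HS. In LW pigs they were 8.47, 8.97 and 9.70 in TN and 8.95, 9.31 and 9.75 in HS. The groups overlapped in F1 and in LW, and almost wholly in LW. The change over the breeds was 0.60 ± 0.13 (SE, log2, n = 35, adjusted p = 0.0017 in limma), which is 1.51-fold, and 16 of 18 HS pigs lay above the TN mean of their breed. Within the 4 slides that allowed the comparison it ran from 0.48 to 1.07.

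CTSH, an aminopeptidase, rose on all 3 of its probes. Its leading probe A_72_P609994 gave 10.36, 10.43, 10.56, 10.59 and 10.85 in CR pigs in TN and 10.54, 10.98 and 11.17 (lowest, median, highest) in CR pigs in HS. F1 pigs gave 9.88, 10.24 and 10.55 in TN against 10.53, 10.69 and 10.98 in HS, and LW pigs gave 9.83, 10.30 and 10.54 in TN against 10.24, 10.49 and 10.86 in HS. The groups overlapped in each breed, in F1 only narrowly. The change was 0.38 ± 0.08 (SE, log2, adjusted p = 0.0021, limma), with 16 of 18 HS pigs above the TN mean of their breed. The overlapping pair A_72_P035971 and A_72_P125121 changed by 0.40 and 0.46. A probe without a gene name that has the same 60 bases as A_72_P035971 changed by 0.41 (adjusted p = 0.0023, limma).

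CTSA, the serine carboxypeptidase, rose on 2 of its 3 probes. On A_72_P450137 the CR pigs gave 11.67, 11.77, 11.79, 11.88 and 12.02 in TN and 11.97, 12.28 and 12.67 in HS. The F1 pigs spanned 11.27 to 12.28 in TN, with a median of 11.72, and 11.99 to 12.47 in HS, with a median of 12.37. The LW pigs spanned 11.81 to 12.47 in TN (median 12.03) and 11.87 to 12.76 in HS (median 12.27). In HS, 5 of 6 CR pigs and 4 of 6 F1 pigs exceeded every TN pig of their breed, as did 1 of 6 LW pigs. The change was 0.38 ± 0.10 (SE, log2, adjusted p = 0.0039, limma). The third probe, O1726, was well above background on 23 of 35 arrays and changed by -0.01 ± 0.07.

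CTSB, which cuts within proteins and also trims dipeptides from their ends, was measured by 7 probes, all of them called. Of these, 6 were higher in HS, by 0.23 to 0.51 on the log2 scale, and O12329 was lower. The leading probe A_72_P077676 gave 12.50, 12.69, 12.71, 13.13 and 13.19 in CR pigs in TN and 12.87, 13.03 and 13.50 in CR pigs in HS. In F1 it gave 12.51, 12.67 and 12.81 in TN and 12.81, 13.02 and 13.40 in HS, where every HS pig lay above every TN pig, the nearest by a narrow margin. In LW it gave 12.48, 12.69 and 13.23 in TN and 12.65, 12.84 and 12.99 in HS, with the HS pigs inside the TN range. The change was 0.23 ± 0.08 (SE, log2, adjusted p = 0.0196, limma). It was lost without the CR pigs, at 0.21 (adjusted p = 0.0622, limma).

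On A_72_P562909 of CTSB the groups were farther apart. CR pigs gave 8.70, 8.81, 9.0, 9.32 and 9.36 in TN and 9.47, 9.57 and 9.94 in HS, and F1 pigs 8.36, 8.82 and 9.16 in TN and 9.22, 9.58 and 9.68 in HS. There was no overlap in either breed. LW pigs gave 8.25, 8.55 and 9.47 in TN and 8.48, 8.92 and 9.24 in HS, and overlapped. The change was 0.51 ± 0.11 (SE, log2, adjusted p = 0.0016, limma). The second spot of the same sequence changed by 0.48, and the difference between the spots was 0.19 ± 0.09 (SD, n = 35 arrays).

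O12329 moved the other way. CR pigs gave 9.75, 10.32, 10.41, 10.78 and 10.90 in TN and 9.91, 10.11 and 11.14 in HS. F1 pigs gave 10.71, 11.07 and 11.61 in TN and 9.79, 10.22 and 10.93 in HS, and 5 of 6 F1 pigs in HS lay below every F1 pig in TN. LW pigs gave 10.13, 10.72 and 11.07 in TN and 10.17, 10.63 and 10.86 in HS. The change was -0.35 ± 0.14 (SE, log2, adjusted p = 0.0467, limma), and it was lost in 22 of 35 fits that left out 1 array, at -0.36 to -0.30. It held without CR pig 1 or 3 in TN, CR pig 1 or 4 in HS, F1 pig 5 in TN, F1 pig 4 in HS, LW pig 3 or 5 in TN, and LW pig 1, 2, 4, 5 or 6 in HS. Its deviations from the group means correlated negatively with those of all 6 other CTSB probes over the 35 pigs (Pearson r from -0.36 to -0.21), which correlated with each other at 0.45 to 0.95. O12329 is among the 7 probes with a human record, and whether any of these binds the porcine RNA was not examined here.

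**Figure D1:**
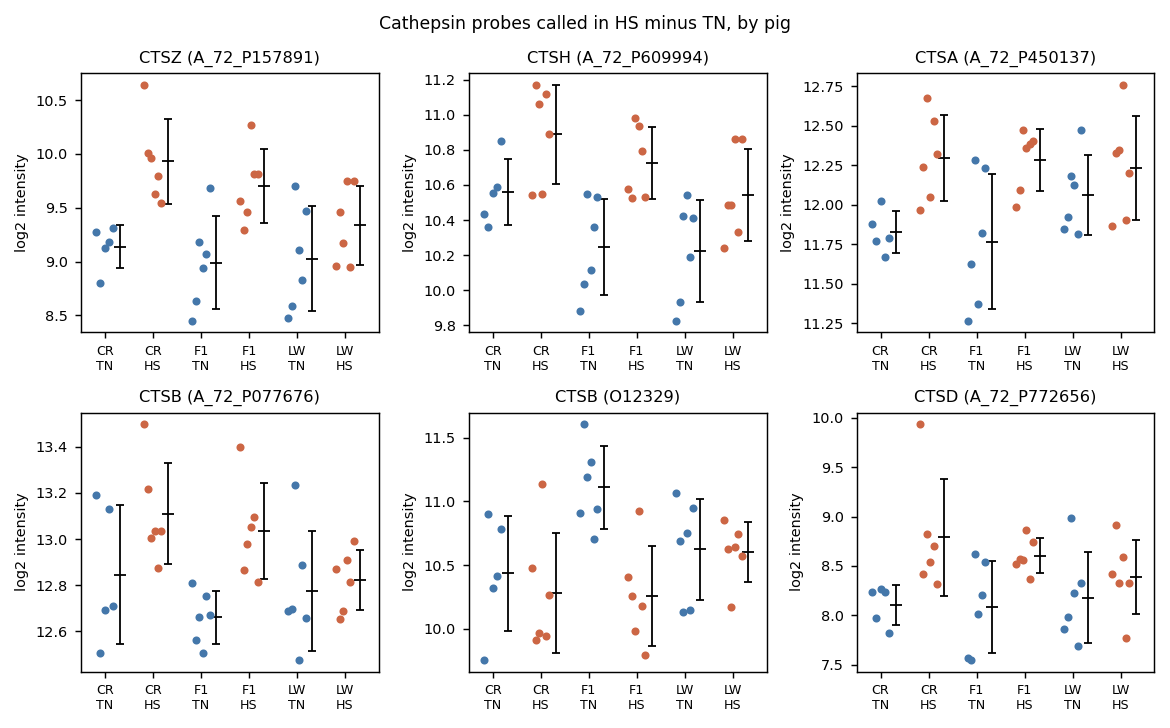
Log2 intensity (y axis) of 6 cathepsin probes called in HS minus TN, in every pig of the 6 breed and climate groups (x axis), with the group mean and SD in black. Blue points are TN pigs and orange points HS pigs. CTSZ, CTSH, CTSA, CTSD and A_72_P077676 of CTSB sit higher in HS in CR and F1, with more overlap in LW, while O12329 of CTSB sits lower in HS in F1 pigs.

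CTSD, the aspartic protease, was called on 1 of its 3 probes. A_72_P772656 gave 7.82, 7.97, 8.23, 8.24 and 8.26 in CR pigs in TN and 8.31, 8.62 and 9.93 in CR pigs in HS, without overlap. It gave 7.55, 8.11 and 8.62 in F1 pigs in TN and 8.37, 8.56 and 8.86 in HS, and 7.69, 8.10 and 8.99 in LW pigs in TN and 7.77, 8.38 and 8.91 in HS. Both of these breeds overlapped. The change was 0.47 ± 0.13 (SE, log2, adjusted p = 0.0086, limma), with 17 of 18 HS pigs above the TN mean of their breed, and it was 0.39 (adjusted p = 0.0065, limma) without the CR pig at 9.93. The leading probe A_72_P178086 changed by 0.24 ± 0.11 (95% interval 0.02 to 0.45) and did not pass the adjustment (adjusted p = 0.0774, limma). Its group means ran from 10.95 ± 0.15 (SD, n = 5) in CR pigs in TN to 11.42 ± 0.58 (n = 6) in CR pigs in HS.

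The other cysteine cathepsins were not called on any probe over the breeds. CTSF, a papain-type endopeptidase, changed by 0.20 ± 0.08 on O8149 (95% interval 0.03 to 0.37, adjusted p = 0.0579, limma) and by 0.16 ± 0.08 on its overlapping partner, and all 4 of the slides compared gave a positive value for both. The group means of O8149 lay between 11.76 ± 0.27 (SD, n = 6) in F1 pigs in TN and 12.12 ± 0.25 (n = 6) in CR pigs in HS.

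CTSC, the dipeptidyl peptidase that activates the serine proteases of neutrophil and cytotoxic granules, changed by 0.17 ± 0.11 on O5247 (95% interval -0.06 to 0.41). Its mean was 10.40 ± 0.43 (SD, n = 6) in F1 pigs in TN and 10.87 ± 0.36 (n = 6) in HS, and 10.66 ± 0.27 (n = 6) in LW pigs in TN and 10.50 ± 0.22 (n = 6) in HS. CR pigs gave 10.66 ± 0.38 (n = 5) in TN and 10.88 ± 0.25 (n = 6) in HS. The mean was thus higher in HS in CR and F1 and lower in LW, with overlap in each breed. The second probe, A_72_P163231, changed by -0.15 ± 0.20.

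CTSS, the enzyme that trims the invariant chain from class II molecules in antigen-presenting cells, changed by -0.06 ± 0.15 on O9267 (95% interval -0.36 to 0.24) and by 0.03 ± 0.15 on A_72_P150601. The interval includes changes as large as that of the leading CTSB probe in either direction. The 6 group means of O9267 lay between 10.09 ± 0.37 (SD, n = 6) in F1 pigs in HS and 10.51 ± 0.41 (n = 6) in CR pigs in HS. Neighbouring groups in that order differed by at most 0.14, less than any within-group SD of the probe. Of the 10 probes named LOC100153090, 9 were not called, with changes from -0.12 to 0.15, and A_72_P738817 fell by 0.68 on the log2 scale (SE 0.14, adjusted p = 0.0016, limma).

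CTSK, best known as the collagen-degrading enzyme of osteoclasts, was well above background on all 35 arrays on the 5 probes in the table, and its sixth probe, O11954, on none. The 5 changes ran from -0.30 to 0.03, and the leading probe A_72_P749400 changed by -0.08 ± 0.19 (95% interval -0.46 to 0.30). The mean of that probe was higher in HS in F1 and lower in CR and LW, and the interaction did not pass the test (adjusted p = 0.368, limma). It was 8.81 ± 0.66 (SD, n = 6) in TN and 9.28 ± 0.80 (n = 6) in HS in F1 pigs, and 9.05 ± 0.35 (n = 6) in TN and 8.51 ± 0.22 (n = 6) in HS in LW pigs. CR pigs gave 9.23 ± 0.53 (n = 5) in TN and 9.05 ± 0.53 (n = 6) in HS. The 5 probes followed each other closely over the pigs (r of the deviations from the group means 0.78 to 0.96).

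CTSL1, an endopeptidase of the lysosome, had the leading probe with the fewest arrays well above background, 30 of 35. Of its 10 probes on the array, 5 were in the table, and these were well above background on 17 to 30 of 35 arrays. The 5 outside it were so on 11 to 19 arrays. All 5 changes in the table were negative, from -0.41 to -0.14, none was called, and the leading probe A_72_P682327 had a 95% interval of -0.99 to 0.17. Its within-group SD ran from 0.65 to 1.22 on the log2 scale, and 0.80 was the highest SD of any other leading probe. The 5 probes, some of which overlap, followed each other over the pigs (r of the deviations from the group means 0.93 to 0.97). The pigs of F1 in TN spanned 5.48 to 8.75 and those of F1 in HS 5.05 to 6.89.

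**Figure D2:**
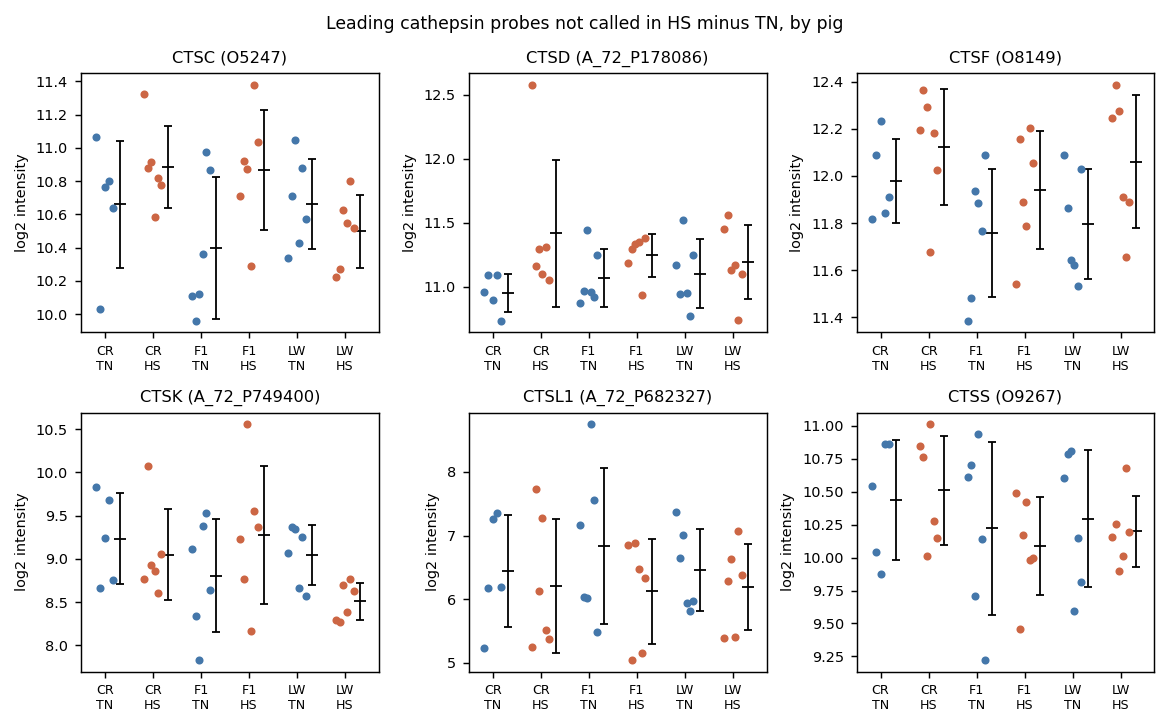
Log2 intensity (y axis) of the leading probes of the 6 cathepsin genes not called in HS minus TN over the breeds, in every pig of the 6 groups (x axis), with the group mean and SD in black. Blue points are TN pigs and orange points HS pigs. HS and TN pigs overlap in every panel and breed, and 1 CR pig in HS stands apart for CTSD (12.58) and another for CTSK (10.08).

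The second comparison asked whether the difference between HS and TN was alike in the 3 breeds. In F1 pigs, 13 of 33 cathepsin probes were called (39.4%, against 38.7% of all probes), 12 higher and 1 lower, where 20.8% of all probes were higher and 17.9% lower. In CR and in LW pigs none was called, as none was among all 39072 probes. At an unadjusted p under 0.05, limma gave 11 of 33 cathepsin probes in CR (33.3%, against 8.87% of all probes), 4 in LW (12.1%, against 8.71%) and 15 in F1 (45.5%, against 48.9%). CTSZ changed by 0.79 ± 0.23 (SE) in CR, 0.71 ± 0.22 in F1 and 0.31 ± 0.22 in LW. In the same order CTSA changed by 0.47, 0.52 and 0.17, with an SE of 0.16 to 0.17. CTSB changed on its leading probe by 0.26, 0.37 and 0.05, with an SE of 0.13. CTSH changed by 0.33, 0.48 and 0.32, with an SE of 0.15.

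Over all 33 cathepsin probes, the median size of the change, whatever its sign, was 0.24 in CR, 0.37 in F1 and 0.17 in LW, against 0.14, 0.31 and 0.14 over all probes. The change was smallest in LW for 17 of the 33, as for 47.2% of all probes. Of 33 cathepsin probes, 5 had every CR pig in HS above every CR pig in TN (15.2%, against 0.417% of all probes). The corresponding number was 3 in F1 (9.09%, against 3.59%) and 0 in LW (against 0.683%). The 5 in CR were 3 CTSB probes, of which 2 are one sequence, with CTSD A_72_P772656 and CTSZ. The 3 in F1 were all CTSB probes.

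The difference between breeds in the effect of heat did not pass the test. The moderated F test of the breed by climate interaction gave no call among the 33 probes or among all probes, with a smallest adjusted p of 0.281 for the cathepsins, and 2 probes, both of CTSB (A_72_P095036 and O12329), had an unadjusted p under 0.05 (6.06%, against 14.9% of all probes). Between F1 and LW, 8 probes had an unadjusted p under 0.05 (24.2%, against 22.7% of all probes), and none was called. The leading CTSC probe was among them, with a heat effect higher in F1 by 0.63 (95% interval 0.11 to 1.16, adjusted p = 0.155, limma). The leading CTSK probe was another, with a heat effect higher in F1 by 1.01 (0.14 to 1.87, adjusted p = 0.165, limma). For CTSZ the heat effect in F1 minus that in LW was 0.40 ± 0.30 (SE) and for CTSH 0.16 ± 0.21. CTSC was called within F1 (0.47 ± 0.18, adjusted p = 0.0415, limma), and the unnamed probe of the same 60 bases gave 0.50 (adjusted p = 0.0359).

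**Figure D3:**
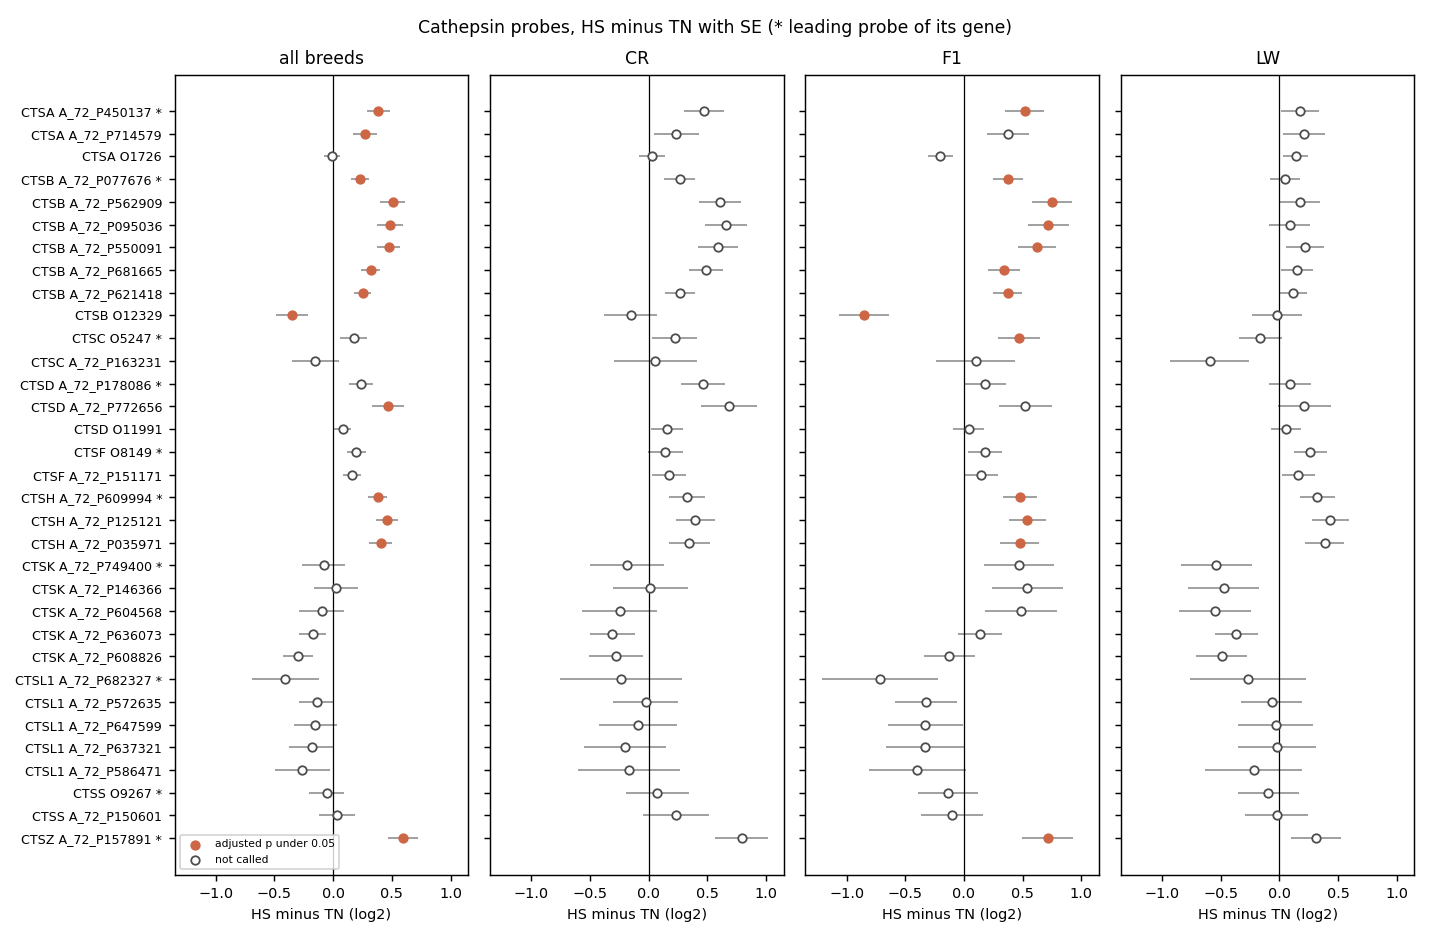
Change between HS and TN (x axis, log2, with SE) for the 33 cathepsin probes (y axis), over all breeds and within CR, F1 and LW. Filled points passed an adjusted p of 0.05 and stars mark leading probes. The called probes lie to the right except O12329 of CTSB. The starred points of CTSA, CTSB, CTSD and CTSZ lie closer to 0 in LW than in CR and F1. Those of CTSF and CTSK lie farther from 0 in LW than in CR and F1.

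The third comparison asked whether cathepsin levels differed between breeds. CR pigs gave higher values than LW pigs on 29 of 33 probes, with a median difference of 0.17 on the log2 scale against -0.01 over all probes, but 1 probe was called (3.03%, against 1.08% of all probes). It was A_72_P562909 of CTSB, where CR exceeded LW by 0.54 ± 0.13 (SE, log2, adjusted p = 0.0305, limma), or 1.45-fold. The values by group are given above. CR pigs in HS all lay above every LW pig in HS, and CR and LW pigs in TN overlapped. The second spot of the same sequence differed by 0.50 and just missed the threshold (adjusted p = 0.0613, limma), and the other 4 higher CTSB probes differed by 0.08 to 0.18. Over the 35 fits that left out 1 array the adjusted p ran from 0.0025 to 0.0646. The call was lost in 10 of them, at 0.48 to 0.53, namely without CR pig 1 or 4 in TN, CR pig 1 or 2 in HS, LW pig 1 or 4 in TN, and LW pig 1, 2, 3 or 5 in HS.

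All 3 CTSH probes and CTSZ had an unadjusted p under 0.05 for CR minus LW. The leading CTSH probe differed by 0.34 ± 0.10 (SE, adjusted p = 0.129, limma) and CTSZ by 0.36 ± 0.16 (adjusted p = 0.403). For CTSZ the 6 groups ranked CR in HS (9.93 ± 0.39, SD, n = 6), F1 in HS (9.70 ± 0.34), LW in HS (9.34 ± 0.37), CR in TN (9.14 ± 0.20, n = 5), LW in TN (9.03 ± 0.49) and F1 in TN (8.99 ± 0.43). The largest step between neighbours, 0.37 from F1 to LW in HS, was about the SD of either group. F1 pigs were called against neither parent breed nor against the mean of both on any cathepsin probe, while 0.184% of all probes were called against CR, 0.0256% against LW and 0.0717% against the mean of both. At an unadjusted p under 0.05 limma gave 2, 2 and 0 of 33, where 4.95%, 4.48% and 2.99% of all probes had one. The leading CTSH probe was 0.24 ± 0.10 lower in F1 than in CR (adjusted p = 0.912).

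Genes of delivery to the lysosome, not all of them carriers of cathepsins, rose in part. Of 14 such genes listed, 10 were measured, and 7 were called higher in HS and none lower on the leading probe, with a median change of 0.30. Of the leading probes of all named genes 23.0% were called higher and 16.7% lower, with a median change of 0.06. The largest changes were those of NAGPA, which uncovers the mannose 6-phosphate tag (0.42 ± 0.08, SE, log2, adjusted p = 0.0016), GGA2, an adaptor that sorts the receptors (0.34 ± 0.09), SCARB2, a carrier of another lysosomal enzyme (0.32 ± 0.08), and PSAP, a saposin precursor (0.32 ± 0.09). Of the mannose 6-phosphate receptors, M6PR rose by 0.28 ± 0.06 (adjusted p = 0.0017, limma) and IGF2R changed by -0.05 ± 0.09. Of 12 partners and regulators 10 were measured, and 5 were called higher and none lower, with a median of 0.13. They included MITF (0.54 ± 0.11) and TFE3 (0.30 ± 0.09), transcription factors of lysosomal genes, CD74, the invariant chain (0.36 ± 0.11), and IFI30, a lysosomal thiol reductase (0.28 ± 0.09). TFEB, the best known of these factors, changed by 0.04 ± 0.11.

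Of 12 cystatins and other protease inhibitors listed, 9 were measured, with 2 called higher and 1 lower. Over the leading probes of all named genes 23.0% were called higher and 16.7% lower. Whether the serpins in this list inhibit the cathepsins followed here was not examined. CSTB, the intracellular cystatin B, rose by 0.26 ± 0.09 (SE, log2, adjusted p = 0.0234, limma), SERPINB6 rose by 0.48 ± 0.11 (adjusted p = 0.0024) and CST6, a secreted cystatin, decreased by 0.60 on the log2 scale (SE 0.23, adjusted p = 0.0389). Among 9 other cathepsins and related proteases 3 were measured. The probe named CTSL2 fell by 0.65 on the log2 scale (SE 0.18, adjusted p = 0.0063, limma). It has a human record and no run of 16 or more bases in common with the CTSL1 probes, and CTSL2 is a synonym of the RefSeq gene behind these, so that it may not be another gene. CTSW, of cytotoxic lymphocytes (0.09 ± 0.10), and LGMN, which matures other cathepsins (0.05 ± 0.10), were not called. The lists were chosen with earlier results of these data known, and their counts describe them without a test of the list.

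**Figure D4:**
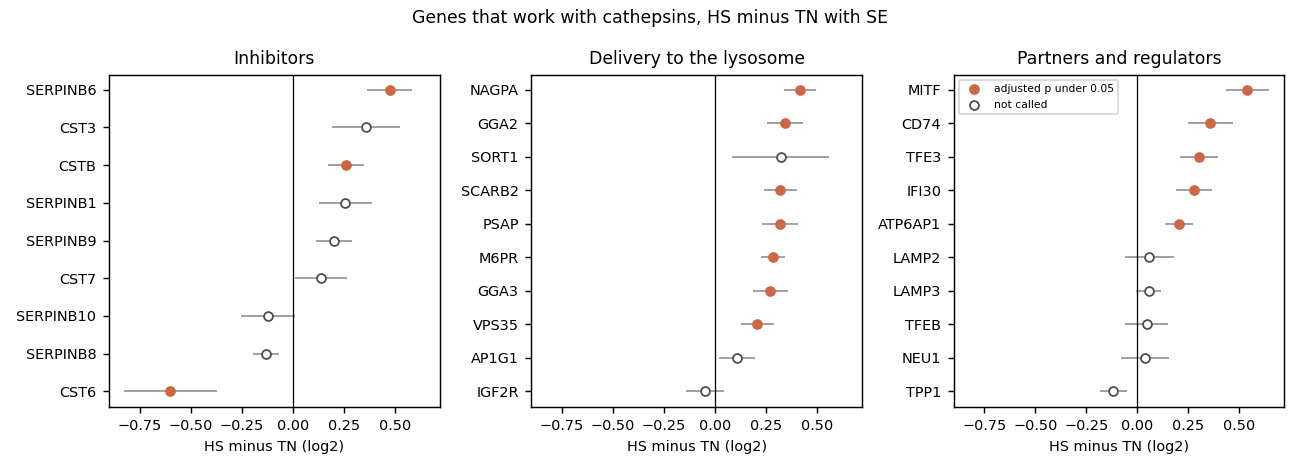
Change between HS and TN (x axis, log2, with SE) of the leading probe of each measured gene (y axis). The lists are cystatins and other protease inhibitors, genes of delivery to the lysosome, and partners and regulators of cathepsins. Filled points passed an adjusted p of 0.05. The 7 called delivery genes and the 5 called partners all lie above 0, and CST6 among the inhibitors lies below.

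Blood cell markers moved with climate beside the cathepsins. Over the leading probes of all named genes 23.0% were called higher and 16.7% lower. Of 23 erythroid genes 16 were measured, with 8 called lower in HS and 1 higher (SLC4A1, 0.27 ± 0.10), and a median of -0.70 on the log2 scale. The largest changes among those called lower were in CA1 (-1.41), HEMGN (-1.25), TFRC (-1.11) and CA2 (-0.98), while the globin gene HBB changed by -0.13 ± 0.09 and was not called. The mean log2 value of the erythroid list ran from 10.17 to 12.15 in F1 pigs in TN and from 8.97 to 10.72 in HS, from 9.96 to 11.33 against 9.39 to 11.09 in CR, and from 10.43 to 11.28 against 9.83 to 10.91 in LW. F1 thus had the largest shift of the list. It was also the only breed with calls, which covered 39.4% of cathepsin probes and 38.7% of all probes. With the erythroid list mean as a covariate, 0 of 33 cathepsin probes and 2 of 39072 probes were called over the breeds. CTSZ was then still 0.47 higher, CTSH 0.26, CTSB 0.23 and CTSA 0.19 higher on their leading probes (adjusted p from 0.118 to 0.243, limma). The part of red cell content in these results was not tested.

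Without the F1 pigs, which left 23 of 35 pigs, none of the 33 cathepsin probes and none of all 39072 was called. CTSZ was then 0.54 higher in HS, CTSH 0.33 and CTSA 0.32 on their leading probes, and A_72_P772656 of CTSD 0.44 (adjusted p from 0.185 to 0.236, limma), near their values over the 3 breeds. The leading CTSB probe was 0.15 higher (adjusted p = 0.399) and O12329 changed by -0.08 (adjusted p = 0.781). The fit without LW pigs gave 14 called cathepsin probes and the fit without CR pigs 11.

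Of the monocyte list, 12 of 15 genes were measured, with CSF1R (0.51 ± 0.11) and VCAN (0.48 ± 0.16) called higher and MRC1 (-0.78 ± 0.20) and KLF4 (-0.63 ± 0.16) lower, and CD14, the defining marker, at -0.10 ± 0.17. The mean of the list stayed between 7.91 and 9.32 in all pigs, with group means of 8.26 to 8.47. Of the neutrophil list 12 of 15 were measured, with FCN1 called higher (0.36 ± 0.14) and ARG1 lower (-1.52 ± 0.32), and 10 of the 12 changes were negative, with a median of -0.30. Of 7 measured B cell genes 4 were called higher and none lower, led by MS4A1 (0.38 ± 0.14). Of 10 T cell genes 3 were called higher and none lower, led by CD5 (0.45 ± 0.12). Of 8 cytotoxic cell genes 1 was lower (KLRK1, -0.75 ± 0.29), and of 4 platelet genes none was called, with a median of 0.21. These counts stand beside 23.0% called higher and 16.7% called lower over the leading probes of all named genes. The part of any of these blood cells in the cathepsin results was not tested.

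**Figure D5:**
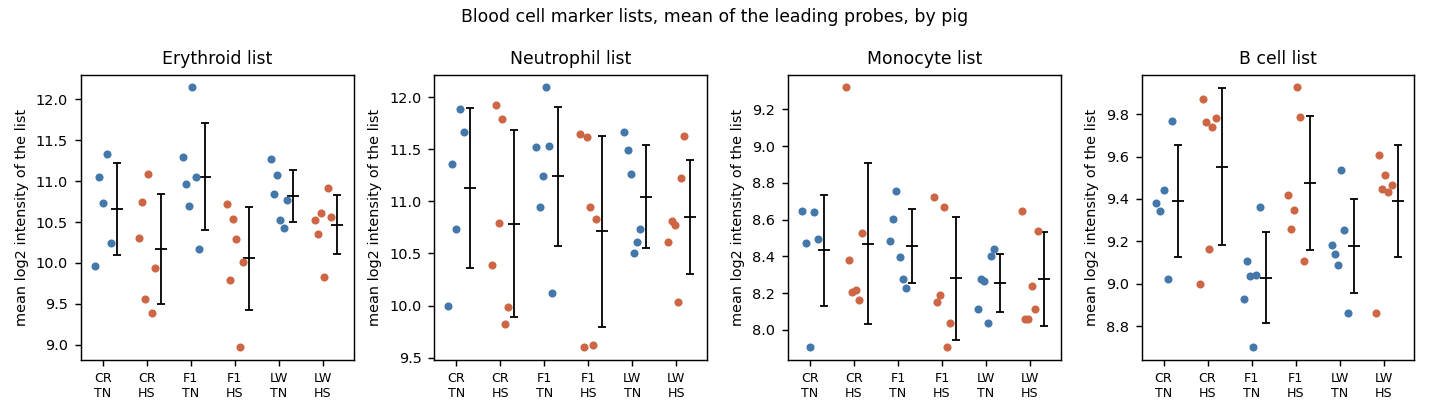
Mean log2 intensity (y axis) of the leading probes of the erythroid, neutrophil, monocyte and B cell lists in every pig of the 6 groups (x axis), with the group mean and SD in black. Blue points are TN pigs and orange points HS pigs. The erythroid mean is lower in HS in each breed, most so in F1 (11.06 in TN against 10.06 in HS), and the monocyte means of the groups lie between 8.26 and 8.47.

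Pig-to-pig variation within groups divided the cathepsins. The values below are Pearson correlations of deviations from the group mean over 35 pigs, which share arrays, slides and cell content, and are given as a description. CTSA and CTSH varied together (0.73), CTSZ followed CTSH (0.59), CTSA (0.52) and CTSD (0.51), and CTSS ran opposite to CTSA (-0.64) and CTSF (-0.48). CTSL1 followed the neutrophil list (0.84) and the erythroid list (0.82) and CTSS followed both less closely (0.63 and 0.60), while CTSA ran opposite to the erythroid list (-0.58). CTSB and CTSD followed the monocyte list (0.57 and 0.52) and CTSH the B cell list (0.58). CTSZ, CTSA and CTSH followed the platelet list of 4 genes (0.57, 0.53 and 0.51), to which CTSS ran opposite (-0.59), and CTSZ had 0.25 with the monocyte list.

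The named genes with the pattern most like each cathepsin over the 35 pigs were, for CTSZ, CSF1R, the receptor of the macrophage growth factor (0.86), with ARPC1B (0.84) and ANXA11 (0.82). For CTSB they were SYCP3 (0.78), the proton pump subunit gene ATP6V1H (0.73) and CD163, a scavenger receptor of macrophages (0.71). For CTSD they were the filamin genes FLNC (0.84) and FLNA (0.82), with HTRA1 (0.82). CTSS was most like ALCAM (0.90), ANXA1 (0.90) and ARL1 (0.88), and CTSL1 was most like KCNN4 (0.97), RAB15 (0.96) and FZD5 (0.96). The leading genes for the others were PAPD5 for CTSA (0.89), MFSD6 for CTSC (0.88), PPM1D for CTSK (0.84), MRPL48 for CTSH (0.82) and SLC27A3 for CTSF (0.67). O12329 of CTSB was most like SLC10A7 (0.98) and LOX (0.98).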

How the data were processed

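Whole-blood RNA of 35 pigs was labelled with Cy3 and hybridised to a one-colour Agilent porcine array of 60305 non-control probes. Per the labels, images were read with Agilent Feature Extraction 10.10.1.1 and processed with limma. The authors deposited log2 values of 39072 probes, quantile normalized and filtered on background, which were used as the measurements. The log2 values recomputed here from the deposited scanner intensity of each array, with quantile normalization, differed from them by a median of 0.023. The deposited intensity files also gave the alternatives, the calls of probes well above background and the slides. Gene names are those of the array.

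Groups were breed by climate, from the labels. Pigs were numbered in accession order within a group. Pen, slaughter day and parents, which the study's own model includes, are in no label and were left out. The fits thus treat the pigs as independent, and their p-values do not allow for variation between pens, slaughter days or families. For HS minus TN 13601 of 39072 probes were called here, and the study's model reported far fewer in blood. Per probe, limma 3.58.1 (R 4.3.3) fitted breed and climate (lmFit, eBayes) for HS minus TN and the breed contrasts, and 6 group means for the changes within breeds and the interaction. P-values are two-sided and adjusted over all 39072 probes, with a threshold of 0.05. For companion genes, each gene was taken by its leading probe, the one with the highest mean. The scripts were tested on simulated data. The number of arrays limits the precision.

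All 10 genes are named and each probe is accounted for. Values of leading probes past the threshold are given by pig for CR pigs in TN and as lowest, median and highest for other groups. The same holds for a called probe of the opposite direction (CTSB). It also holds for the called probe with the smallest p where the leading one was not called (CTSD). A_72_P562909 of CTSB is given as the probe called between breeds. At most 4 called genes are named per companion list in order of size. Genes named beyond that, and those not called, were chosen after their values were seen, as were the LOC100153090 probes. For likeness, the 3 genes with the highest correlation were taken. The cathepsins, the gene lists and the tests were chosen with earlier results of these data known. Alternatives were other normalizations and filters, slide as a block, array weights, an erythroid covariate, gene means, and leaving out arrays or breeds.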

Additional observations from a re-analysis of the deposited data

Results flagged for a closer look

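In 3 of 78 groups tested, 1 pig lay farther from the rest of its group than Dixon's limit at the 95% level allows, where chance sets apart about 5% of groups. CR pig 1 in HS had 12.58 on A_72_P178086 of CTSD, while the other 5 pigs of the group lay between 11.06 and 11.31. The same pig had 9.93 on A_72_P772656 of CTSD, where the others lay between 8.31 and 8.82. The readings share 1 RNA sample and array. CR pig 2 in HS had 10.08 on A_72_P749400 of CTSK, where the others lay between 8.61 and 9.06. Without the first pig the HS minus TN change of CTSD was 0.16 (adjusted p = 0.0754, limma) on the leading probe and 0.39 (adjusted p = 0.0065) on A_72_P772656, and without the second that of CTSK was -0.14.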

How the results depend on the processing

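The count of 14 called cathepsin probes (4 leading) for HS minus TN stayed between 13 and 16 (4 to 6 leading) under both recomputations from the scanner intensity, normexp, 75th-percentile scaling, slide as a fixed or random block and array weights. It fell to 0 (0 leading) with the erythroid covariate and to 0 (0 leading) without F1 pigs. In F1 the erythroid covariate gave 3 (0 leading), and the mean of all probes of a gene gave 3 leading calls. In LW, array weights gave 3 (1 leading). For CR minus LW, slide as a fixed block gave 2 (1 leading) and array weights 5 (1 leading). The change of CTSK reversed to 0.0099 with the erythroid covariate and to 0.158 without LW pigs, and with that covariate CTSL1 reversed to 0.401 and CTSS to 0.243. None of these was called. The cause of these shifts was not tested. Fits without a breed held fewer pigs, 23 without F1, 23 without LW and 24 without CR. The fits without LW and without CR pigs called 14 and 11 cathepsin probes. The calls of CTSA, CTSH and CTSZ were lost only with the covariate or without F1 pigs, where the changes were 0.32, 0.33 and 0.54 (0.38, 0.38 and 0.60 with all pigs), that of CTSB also without CR pigs, as was A_72_P772656 of CTSD (0.37, adjusted p = 0.0619). CTSD was gained on its leading probe with array weights, and CTSF with those or 75th-percentile scaling. O12329 of CTSB was also lost with no filter, with that scaling and with slide as a fixed block (adjusted p 0.0530 to 0.0779). With slide as a fixed block, 1 cathepsin probe other than O12329 was called lower. The same was seen in the fits without CR pig 5 in TN, CR pig 2 in HS, F1 pig 3 in TN or F1 pig 3 in HS.

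Leaving out each array in turn gave 12 to 16 called probes (4 to 6 leading) for HS minus TN, 10 to 14 (4 to 5 leading) in F1, 0 to 2 (0 leading) for CR minus LW, and 0 for the other comparisons. CTSD was gained on its leading probe without LW pig 3 in TN or LW pig 5 in HS (0.27 each), and CTSF in 7 such fits (0.21 to 0.23). TN and HS pigs are different animals, and the paper arranged them in blocks of littermates. The labels give no litter or block, so no analysis matched by litter was possible. The pig numbers used here follow accession order. The leading CTSL1 probe was well above background on 30 of 35 arrays and those of the other genes on all 35.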
